A study of Homo sapiens with 48 samples.

Results

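The 10 genes described here encode the subunits of Polycomb repressive complex 2 (PRC2): EZH2, EZH1, EED, SUZ12, RBBP4, RBBP7, JARID2, AEBP2, MTF2 and PHF19. They were chosen by symbol from the 37706 genes of the count table, with earlier results of these data known. All 10 were counted in every library, with at least 82 counts, and all 10 were among the 17749 genes that passed the filter on low counts. The series measured polyadenylated RNA in 48 libraries of 4 human germinal centre B-cell type diffuse large B-cell lymphoma lines: SUDHL6, Oci-Ly7, Oci-Ly8 and Oci-Ly18. Each line was kept for 6 days with the combination of both inhibitors, with the EZH2 inhibitor GSK343 alone (EZH2i), with the DOT1L inhibitor EPZ-5676 alone (DOT1Li) or with the solvent DMSO, in 3 libraries per group. The cells were reseeded in fresh medium and inhibitor at day 3. The question was how inhibition of both histone methyltransferases affects the identity of the cells. No group carries an engineered allele, each line stands for 1 tumour, and all groups share the 6 days of culture. Inhibitor doses and the EZH2 mutation status of the lines were not given in the sources used here. Nothing in the labels says that the libraries of a group came from separate cultures, so the p-values measure the spread between these libraries, which may be technical.

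PRC2 places methyl groups on lysine 27 of histone H3 (H3K27), a mark of silenced genes. Its catalytic subunit is EZH2 or the related EZH1: EZH2 is the form of dividing cells, and germinal centre B cells are known for high EZH2, while EZH1 is the form that persists in resting cells. EED binds the methylated histone and stimulates the enzyme, SUZ12 holds the complex together, and RBBP4 and RBBP7 are histone-binding proteins that other chromatin complexes also use. Accessory subunits define alternative forms: MTF2 and PHF19 belong to PRC2.1, and JARID2 and AEBP2 to PRC2.2. GSK343 competes with the methyl donor in the EZH2 active site, and EPZ-5676 does the same in DOT1L, which methylates lysine 79 of histone H3. Both act on the enzyme, so the transcript levels below are no check of whether the inhibitors worked.

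EZH2 (ENSG00000106462) lies on chromosome 7, 148807257 to 148884321, and EZH1 (ENSG00000108799) on chromosome 17, 42700275 to 42745049, in the coordinates given with the deposited counts (GRCh38). The 2 genes moved in opposite directions in SUDHL6, as described below, and SUZ12 was among the members that moved most closely with cell-cycle genes. Their promoter windows are shown because EZH2, EED and SUZ12 are known targets of the E2F factors of the cell cycle. SUZ12 was picked for printing after its values were seen. Each window runs from 250 bases before to 50 bases after the first start site that RefSeq lists (GRCh38.p14), and is given 5′ to 3′ on the gene's strand. They are chr7:148884242-148884541, minus strand, for EZH2, chr17:42744991-42745290, minus strand, for EZH1, and chr17:31936757-31937056, plus strand, for SUZ12. Capitals mark words described after the sequences.
EZH2: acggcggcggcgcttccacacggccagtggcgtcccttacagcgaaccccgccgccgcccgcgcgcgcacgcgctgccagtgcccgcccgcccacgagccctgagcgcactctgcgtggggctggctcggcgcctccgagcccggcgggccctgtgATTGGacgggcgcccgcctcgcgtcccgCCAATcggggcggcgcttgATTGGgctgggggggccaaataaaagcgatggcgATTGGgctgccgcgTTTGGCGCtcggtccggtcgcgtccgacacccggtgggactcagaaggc
EZH1: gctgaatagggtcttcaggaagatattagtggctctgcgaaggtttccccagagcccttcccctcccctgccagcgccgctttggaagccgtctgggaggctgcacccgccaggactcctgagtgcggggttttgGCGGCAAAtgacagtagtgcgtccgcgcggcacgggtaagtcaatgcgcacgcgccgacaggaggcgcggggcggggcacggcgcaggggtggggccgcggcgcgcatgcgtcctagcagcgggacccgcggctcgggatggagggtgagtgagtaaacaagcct
SUZ12: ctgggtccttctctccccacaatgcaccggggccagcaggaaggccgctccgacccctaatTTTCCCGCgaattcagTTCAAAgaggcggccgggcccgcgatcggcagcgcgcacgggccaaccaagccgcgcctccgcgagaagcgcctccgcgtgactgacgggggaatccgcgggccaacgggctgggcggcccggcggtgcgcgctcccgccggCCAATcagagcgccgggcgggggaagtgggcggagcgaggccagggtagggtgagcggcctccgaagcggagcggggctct
Words of 3 kinds were searched on both strands: E2F words (TTTCCCGC, TTTGGCGC, TTTCGCGC or TTTGCCGC), the cell-cycle element CHR (TTTGAA or TTCGAA) and the CCAAT box. The EZH2 window held the E2F word TTTGGCGC at position 252, counted from 1 at its 5′ end, and CCAAT words at positions 157, 185, 204 and 238, with no overlap between them. The EZH1 window held 1 E2F word, on the reverse strand at position 136, and no CCAAT word. The SUZ12 window held an E2F word at 62, a CHR word on the reverse strand at 78 and a CCAAT word at 220. Over 35116 RefSeq promoter windows, 3.31% held an E2F word, 16.4% a CHR word and 34.6% a CCAAT word, and 0.991% held 4 or more CCAAT words. Of the 15 windows of the 10 members, 6 held an E2F word, 1 a CHR word and 10 a CCAAT word. By gene, 6 members had an E2F word in at least 1 of their windows, 1 had a CHR word and 7 had a CCAAT word. The second EZH2 window, not printed, held no word of these kinds. RBBP4, RBBP7, EED and JARID2 had CCAAT words without an E2F word. A matching word describes the letters in the window and does not show binding.

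Total counts ranged from 5174269, in Oci-Ly8 DOT1Li replicate 3, to 18845074, with a median of 14499937 and a next lowest total of 11391942. Oci-Ly8 DMSO replicate 3 and Oci-Ly8 DOT1Li replicate 3 stood apart from the other libraries: the rise of log2 count with log2 exon length over genes was 0.49 and 0.53 there, against 0.63 to 0.86 in the others. Results in Oci-Ly8 are therefore given with and without them where a call depends on it. The B-cell markers CD79A, CD79B, MS4A1, PAX5 and CD22 were counted in all 48 libraries, as were the germinal centre markers BCL6, MME, MYBL1 and S1PR2. SERPINA9 was at 0 in 33 libraries and LMO2 at 0 in 3. The 5 myeloid markers summed to 0.489 to 20.3 CPM (counts scaled to the TMM-adjusted library total) with the combination, 0.431 to 14.6 CPM with EZH2i and 0.179 to 24.1 CPM with DOT1Li, against 0.159 to 19.5 CPM in DMSO. Of those, the 3 that passed the filter all rose with the combination averaged over lines, where 25.7% of all genes rose and 20.7% fell. By line, 2 of the 3 rose in Oci-Ly7, 2 in Oci-Ly8, 0 in SUDHL6 and 1 in Oci-Ly18. Averaged over lines, 1 of 3 tested T-cell markers, 1 of 3 tested fibroblast markers and 0 of 2 tested epithelial markers rose. Of the 5 tested germinal centre markers 2 rose and 3 fell, and of the 6 tested B-cell markers 1 rose and 1 fell. The myeloid receptor gene FCGR3A was at 0 in 43 libraries. Other markers were not low in every library: in DMSO the T-cell markers summed to up to 60.8 CPM and the fibroblast markers to up to 145.1 CPM. Over all 48 libraries the T-cell gene TRAC reached 57.9 CPM and the fibroblast gene PDGFRA 139.5 CPM. The part of these marker levels in the member results was not tested. In bulk RNA a lower level may stand for fewer cells that express a gene or for less RNA per cell, and these cannot be told apart.

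In DMSO the catalytic subunits stood at opposite ends of the complex on the scale of CPM per kilobase of exon (CPM per kb). Averaged over the 4 lines, EZH2 was highest at 62.0 and EZH1 lowest at 7.64. RBBP7 followed EZH2 at 53.5 CPM per kb, RBBP4 at 52.4 and SUZ12 at 38.99, while EED was at 12.5. The accessory subunits all lay below SUZ12, with MTF2 at 18.7, AEBP2 at 15.5, PHF19 at 12.2 and JARID2 at 11.4 CPM per kb. SUZ12 and its partial copy SUZ12P1 may share reads, and RBBP7 overlaps the neighbouring gene TXLNG by 5237 bases, so these levels are uncertain. The length covers every exon annotated for a gene in any transcript, which may exceed the expressed form, so the order between genes depends on it. In CPM without length, RBBP4 (496) and RBBP7 (395) stood above EZH2 (280.5), and EZH1 (53.4) was again lowest.

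All 10 members differed between the 4 lines in DMSO by edgeR's quasi-likelihood test, where 93.1% of all genes tested did. PHF19 ranged most, with mean levels of 151 CPM in Oci-Ly7 and 38.9 CPM in Oci-Ly8, a ratio of 3.88. JARID2 ranged nearly as much, with 96.2 CPM in SUDHL6 and 24.9 CPM in Oci-Ly8, a ratio of 3.87. EZH2 ranged least, with 308 ± 24.3 CPM in Oci-Ly8 and 244 ± 2.73 CPM in Oci-Ly7 (SD, n = 3 each), a ratio of 1.26. From highest to lowest, the order of EZH2 in DMSO was Oci-Ly8, SUDHL6, Oci-Ly18 and Oci-Ly7. Only Oci-Ly7 was set apart from each of the others, and none of the 3 pairs among Oci-Ly8, SUDHL6 and Oci-Ly18 passed the test (adjusted p from 0.0778 to 0.937). EZH1 had another order: 90.5 ± 4.64 CPM in Oci-Ly18, 53.9 ± 0.487 CPM in Oci-Ly7, 36.2 ± 1.64 CPM in SUDHL6 and 32.9 ± 8.39 CPM in Oci-Ly8. Its lowest pair, Oci-Ly8 and SUDHL6, did not pass the test (log2 difference -0.14 ± 0.10, adjusted p = 0.248), and the other 5 pairs did. Between pairs of lines in DMSO, 10 members differed for Oci-Ly7 against Oci-Ly8, where 62.8% of all genes did, and 9 for Oci-Ly7 against SUDHL6, where 68.3% did. For Oci-Ly7 against Oci-Ly18 the count was 10, with 68.2% of all genes, and for Oci-Ly8 against SUDHL6 it was 8, with 69.4%. For Oci-Ly8 against Oci-Ly18 it was 8, with 66.9%, and for SUDHL6 against Oci-Ly18 it was 7, with 67.4%. Some of the smaller pair differences lost their call in other settings. Without the 2 Oci-Ly8 libraries that stood apart these were RBBP7 in Oci-Ly7 against Oci-Ly8 (adjusted p = 0.128) and AEBP2 in Oci-Ly8 against SUDHL6 (0.111). Under library totals alone they were RBBP4 (0.427) and AEBP2 (0.214) in Oci-Ly7 against SUDHL6 and RBBP7 in SUDHL6 against Oci-Ly18 (0.157). Without a filter on low counts they were RBBP7 in Oci-Ly7 against Oci-Ly8, RBBP4 and AEBP2 in Oci-Ly7 against SUDHL6, EED and RBBP4 in Oci-Ly7 against Oci-Ly18, AEBP2 in Oci-Ly8 against SUDHL6 and EED in SUDHL6 against Oci-Ly18 (0.0607 to 0.29).

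The highest and lowest lines in DMSO differed from member to member. EED was highest in Oci-Ly8, at 136 ± 17.8 CPM, and lowest in Oci-Ly7, at 62.6 ± 0.629 CPM. SUZ12 was highest in Oci-Ly18, at 351 ± 21.98 CPM, and lowest in Oci-Ly8, at 187 ± 18.5 CPM (SD, n = 3 each). Both RBBP4 and RBBP7 were highest in Oci-Ly7, at 567 ± 13.8 and 456 ± 8.36 CPM. AEBP2 was also highest in Oci-Ly7 and lowest in Oci-Ly18, whereas MTF2 was highest in SUDHL6 and lowest in Oci-Ly18. Of the total variation of EZH2 over the 48 libraries on the log2 scale, 37.9% lay between lines, 22.7% between treatments, 32.7% in how the treatments differed between lines and 6.63% within groups. For the other 9 members, from 64.4% (RBBP4) to 92.8% (EZH1) lay between lines.

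With the combination, averaged over the 4 lines, 3 members rose and 7 fell, against 25.7% of all genes that rose and 20.7% that fell. JARID2 rose most, by 0.53 ± 0.05 (adjusted p = 5.82e-12) on the log2 scale (± is the standard error throughout for log2 changes), and PHF19 rose by 0.33 ± 0.04 (adjusted p = 3.81e-09). EZH1 rose by 0.16 ± 0.05 (adjusted p = 0.00801). The falls ranged from -0.31 for RBBP7 to -0.17 for SUZ12, with EED at -0.27, EZH2 at -0.26, MTF2 at -0.24, RBBP4 at -0.23 and AEBP2 at -0.19. EZH2 was thus at 0.834 times its DMSO level (adjusted p = 3.42e-10). The members' median log2 change was -0.21, beside 0.08 over all genes tested. With library totals alone as scaling, the share of called genes that rose was 73.1%, beside 55.5% with TMM scaling, and the median of all genes stood 0.09 higher on the log2 scale. The 3 rises and 7 falls all passed under that scaling too, with EZH2 at -0.17 and EZH1 at 0.24.

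Single inhibitors moved fewer members. With EZH2i averaged over lines, JARID2 (0.45) and PHF19 (0.12) rose and EZH2 (-0.08), RBBP4 (-0.15), RBBP7 (-0.21) and MTF2 (-0.27) fell, 2 higher and 4 lower of 10, where 15.7% of all genes rose and 12.5% fell. With DOT1Li, PHF19 rose by 0.22 ± 0.04 (adjusted p = 0.000252), while EZH2 (-0.09 ± 0.03, adjusted p = 0.0397) and EED (-0.11 ± 0.04, adjusted p = 0.0362) fell, 1 higher and 2 lower, where 5.08% of all genes rose and 5.19% fell. With library totals alone, the share of called genes that rose was 70.2% for EZH2i and 72.2% for DOT1Li. The averaged EZH2 falls with the single inhibitors were small and fragile. The EZH2i call was lost when any 1 of 12 libraries was left out (log2 change -0.10 to -0.07 over all left-out libraries, adjusted p up to 0.0714). The DOT1Li call of EZH2 was lost without any 1 of 14 libraries (adjusted p up to 0.0789), and that of EED without any 1 of 13 (up to 0.101). The libraries concerned are named with the effects of processing. Under library totals alone none of the 3 passed, with EZH2 at -0.04 with EZH2i (adjusted p = 0.46) and -0.06 with DOT1Li (0.325) and EED at an adjusted p of 0.135, and none passed without a filter on low counts. PHF19 with EZH2i (adjusted p = 0.0197) lost its call without Oci-Ly8 DMSO replicate 2 (0.0712).

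The combination was also set against each inhibitor alone. Averaged over lines and relative to EZH2i, PHF19 rose by 0.21 and EZH2, EED, SUZ12, RBBP4, RBBP7 and AEBP2 fell, by log2 changes from -0.23 for EED to -0.08 for RBBP4. That made 1 higher and 6 lower, where 12.8% of all genes rose and 12.2% fell. JARID2 (0.08 ± 0.05), MTF2 (0.03 ± 0.04) and EZH1 (0.08 ± 0.05) did not pass. Under library totals alone, only 3 members were called in this comparison, with 71.0% of the called genes higher, and SUZ12, RBBP4, RBBP7 and AEBP2 lost their calls (adjusted p from 0.0775 to 0.431). RBBP4 also lost its call without a filter (0.122). Relative to DOT1Li, JARID2, EZH1 and PHF19 rose and the other 7 fell, 3 higher and 7 lower, where 19.4% of all genes rose and 15.8% fell. There the share of called genes that rose was 70.4% under library totals alone, and the AEBP2 call was lost under that scaling (-0.05, adjusted p = 0.303) and without a filter (-0.11, adjusted p = 0.0842). The PHF19 call relative to DOT1Li (0.11, adjusted p = 0.0308) was lost without Oci-Ly7 DOT1Li replicate 1, Oci-Ly7 combination replicate 3, Oci-Ly8 DOT1Li replicate 2, SUDHL6 DOT1Li replicate 2 or SUDHL6 combination replicate 1 (up to 0.0887), and without a filter (0.0803). These comparisons share their combination libraries with the one against DMSO. From the sum of the single effects on the log2 scale, 0 members departed by edgeR's test and 0 by DESeq2, where 0.0507% of all genes did by edgeR. Of the members, 3 had an unadjusted p under 0.05 in edgeR, for departures of -0.12 (SUZ12), -0.12 (EED) and -0.09 (EZH2).

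EZH2 responded differently in the 4 lines. In Oci-Ly18 it had 209, 188 and 177 CPM with the combination, 252, 254 and 248 CPM with EZH2i and 238, 248 and 249 CPM with DOT1Li, against 273, 289 and 290.4 CPM in DMSO. All 9 treated libraries lay below the 3 DMSO libraries, with the combination lowest. In SUDHL6 it had 204, 198 and 204 CPM with the combination, 226, 230.4 and 227 CPM with EZH2i and 254, 273 and 255 CPM with DOT1Li, against 286, 296 and 274 CPM in DMSO. Here too every treated library lay below every DMSO library, and the combination group lay below the EZH2i group. In Oci-Ly7 it had 271, 276 and 279 CPM with the combination, 273, 270.4 and 271 CPM with EZH2i and 250.1, 255 and 260.3 CPM with DOT1Li, against 242, 245 and 247 CPM in DMSO. There the order was turned, with every treated library above every DMSO library. In Oci-Ly8 it had 283, 282 and 268 CPM with the combination, 315, 319.5 and 310.2 CPM with EZH2i and 302, 311 and 259 CPM with DOT1Li, against 325, 319 and 280.4 CPM in DMSO. DMSO replicate 3 and DOT1Li replicate 3, the libraries that stood apart, were the lowest of their groups, and all groups overlapped DMSO.

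**Figure D1:**
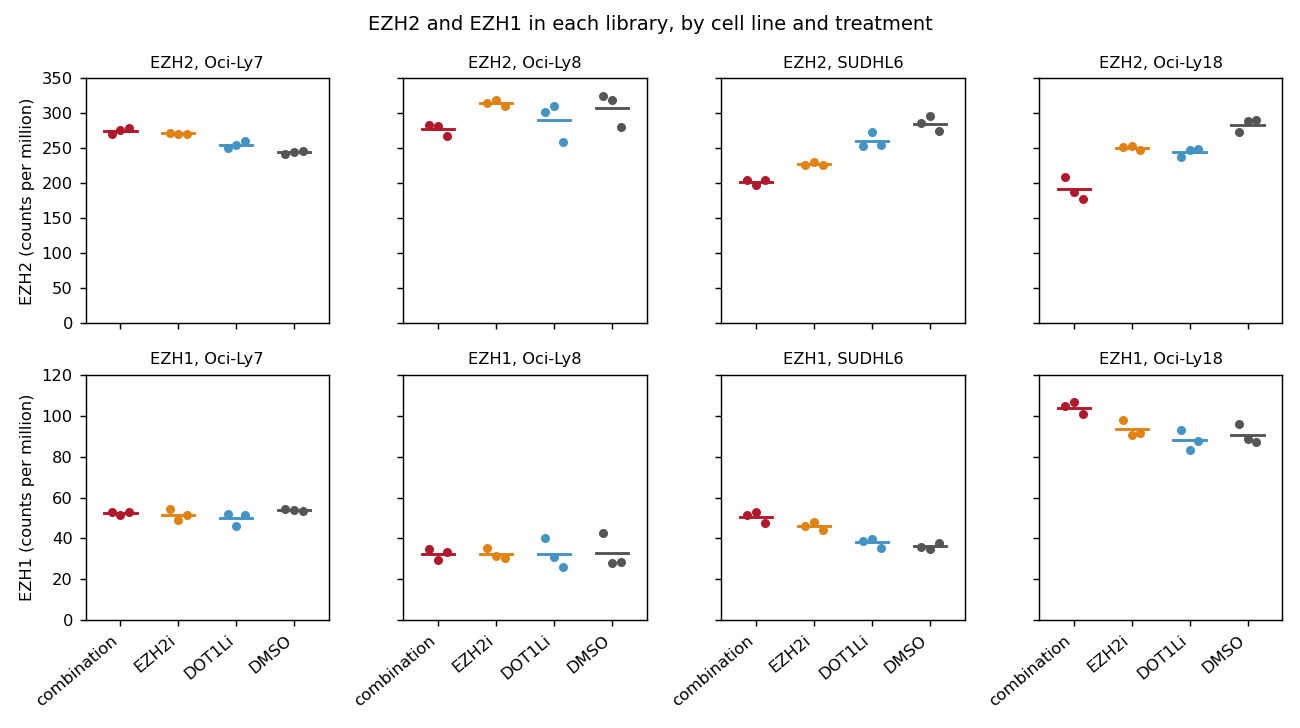
EZH2 and EZH1 levels in CPM in each library (points) with the mean of each group (line), by cell line and treatment. With the combination EZH2 was below DMSO in every SUDHL6 and Oci-Ly18 library and above it in every Oci-Ly7 library, and EZH1 was above DMSO in every SUDHL6 and Oci-Ly18 library.

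With the combination EZH2 fell by 0.57 ± 0.06 (adjusted p = 1.19e-10) in Oci-Ly18, 1.48-fold lower, and fell by 0.50 ± 0.06 (adjusted p = 3.05e-09) in SUDHL6, 1.41-fold lower. In Oci-Ly8 it fell by 0.15 ± 0.06 (adjusted p = 0.0436), and in Oci-Ly7 it rose by 0.17 ± 0.06 (adjusted p = 0.0252). The test that the 4 effects are equal gave an adjusted p of 5.61e-10. The Oci-Ly8 call was lost with DESeq2 (-0.11, adjusted p = 0.103), with its size factors in edgeR (-0.11, adjusted p = 0.157), without a filter (-0.14, adjusted p = 0.308), with at least 10 counts in 24 or more libraries (adjusted p = 0.173) and with the line fitted alone (-0.13, adjusted p = 0.336). Library totals alone gave -0.04 (adjusted p = 0.673). The call was also lost without DMSO replicate 1 or 2 or any combination replicate of that line (adjusted p up to 0.18). The Oci-Ly7 call was lost without Oci-Ly7 DMSO replicate 1 or 2 or combination replicate 2 or 3 (up to 0.0773), and without a filter (0.164). With EZH2i it fell by 0.33 ± 0.06 (adjusted p = 4.55e-05) in SUDHL6 and fell by 0.18 ± 0.06 (adjusted p = 0.0258) in Oci-Ly18, where the call was lost without DMSO replicate 2 or 3 or any EZH2i replicate (up to 0.0956), under library totals alone (0.0944) and without a filter (0.182). It did not pass in Oci-Ly7 (0.15 ± 0.06, adjusted p = 0.0891) or in Oci-Ly8 (0.03 ± 0.06, adjusted p = 0.809). The Oci-Ly7 value did pass without the 2 Oci-Ly8 libraries that stood apart (adjusted p = 0.0193), with the line fitted alone (0.0262) and with a replicate block (0.0303). The EZH2i effects differed between lines (adjusted p = 7.33e-05). With DOT1Li the only EZH2 call was in Oci-Ly18 (-0.21 ± 0.06, adjusted p = 0.0196), and it was lost without DMSO replicate 2 or 3 or DOT1Li replicate 1 (up to 0.106), under library totals alone (0.112) and without a filter (0.146). In SUDHL6 EZH2 with DOT1Li passed only with the line fitted alone (-0.13, adjusted p = 0.0488).

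EZH1, the alternative catalytic subunit, rose with the combination in SUDHL6. In SUDHL6 it had 51.3, 52.8 and 47.5 CPM with the combination, 45.97, 48.04 and 43.96 CPM with EZH2i and 38.7, 39.9 and 35.3 CPM with DOT1Li, against 35.9, 34.7 and 37.9 CPM in DMSO. All combination and EZH2i libraries lay above all DMSO libraries. In Oci-Ly18, the line with the highest EZH1, it had 105, 107 and 101 CPM with the combination, 98.2, 90.5 and 91.8 CPM with EZH2i and 93.2, 83.3 and 87.9 CPM with DOT1Li, against 95.8, 88.6 and 87.1 CPM in DMSO. The combination libraries lay above all DMSO libraries, and the single inhibitors overlapped DMSO. In Oci-Ly7 it had 52.9, 51.7 and 53.1 CPM with the combination, 54.6, 48.8 and 51.5 CPM with EZH2i and 52.1, 45.9 and 51.5 CPM with DOT1Li, against 54.4, 53.9 and 53.4 CPM in DMSO. The combination libraries lay just below the DMSO libraries there. In Oci-Ly8 it had 34.6, 29.4 and 33.1 CPM with the combination, 35.2, 31.4 and 30.4 CPM with EZH2i and 40.2, 30.99 and 26.01 CPM with DOT1Li, against 42.5, 27.8 and 28.2 CPM in DMSO. Its DMSO libraries were spread, with replicate 1 high, and every treatment overlapped them.

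With the combination EZH1 rose by 0.48 ± 0.10 (adjusted p = 0.000101) in SUDHL6, 1.40-fold higher. The change was 0.20 ± 0.09 (adjusted p = 0.0918) in Oci-Ly18, -0.04 ± 0.10 (adjusted p = 0.859) in Oci-Ly7 and -0.03 ± 0.11 (adjusted p = 0.926) in Oci-Ly8, none of which passed. The Oci-Ly18 value passed when that line was fitted alone (0.18, adjusted p = 0.00583) and without the 2 Oci-Ly8 libraries that stood apart (0.20, adjusted p = 0.0366). It also passed with a replicate block (0.20, adjusted p = 0.0107) and under library totals alone (0.28, adjusted p = 0.0358). The 4 effects differed (adjusted p = 0.00579). With EZH2i EZH1 rose by 0.35 ± 0.10 (adjusted p = 0.00781) in SUDHL6, and with DOT1Li it passed in no line, with adjusted p from 0.749 to 1. Averaged over lines, the log2 difference of EZH1 was 0.08 ± 0.05 (adjusted p = 0.287) with EZH2i (95% interval -0.02 to 0.18), which passed without Oci-Ly8 DMSO replicate 1, and -0.02 ± 0.05 (adjusted p = 1) with DOT1Li (-0.12 to 0.08).

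The ratio of EZH2 to EZH1 per kilobase is taken within a library and needs no scaling between libraries. The absolute ratio depends on the exon lengths used, while its change between treatments does not. In Oci-Ly18 its geometric mean was 2.83 with the combination, 4.15 with EZH2i and 4.29 with DOT1Li, against 4.85 in DMSO. In SUDHL6 it averaged 6.18 with the combination, 7.64 with EZH2i and 10.6 with DOT1Li, against 12.2 in DMSO. The combination libraries lay below all DMSO libraries in both lines, at 2.72 to 3.08 against 4.40 to 5.14 in Oci-Ly18 and at 5.79 to 6.64 against 11.1 to 13.1 in SUDHL6. In Oci-Ly7 the ratio averaged 8.07 with the combination, 8.11 with EZH2i and 7.91 with DOT1Li, against 6.99 in DMSO. In Oci-Ly8 it averaged 13.2 with the combination, 13.9 with DOT1Li and between 13.8 and 15.7 in the EZH2i libraries, against 14.7 in DMSO. EZH2 stayed above EZH1 in every library. Averaged over lines, the log2 ratio with the combination minus that in DMSO was -0.42 (fold 0.745). A two-sided exact permutation test of libraries within lines gave p = 0.00385, or 0.0116 adjusted over the 3 treatments. The log2 differences were 0.21 in Oci-Ly7, -0.15 in Oci-Ly8, -0.98 in SUDHL6 and -0.77 in Oci-Ly18. By the same exact test EZH2i gave -0.16 (p = 0.0875, adjusted 0.131) and DOT1Li gave -0.07 (p = 0.321, adjusted 0.321). The smallest p that the 160000 arrangements allow is 1.25e-05.

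**Figure D2:**
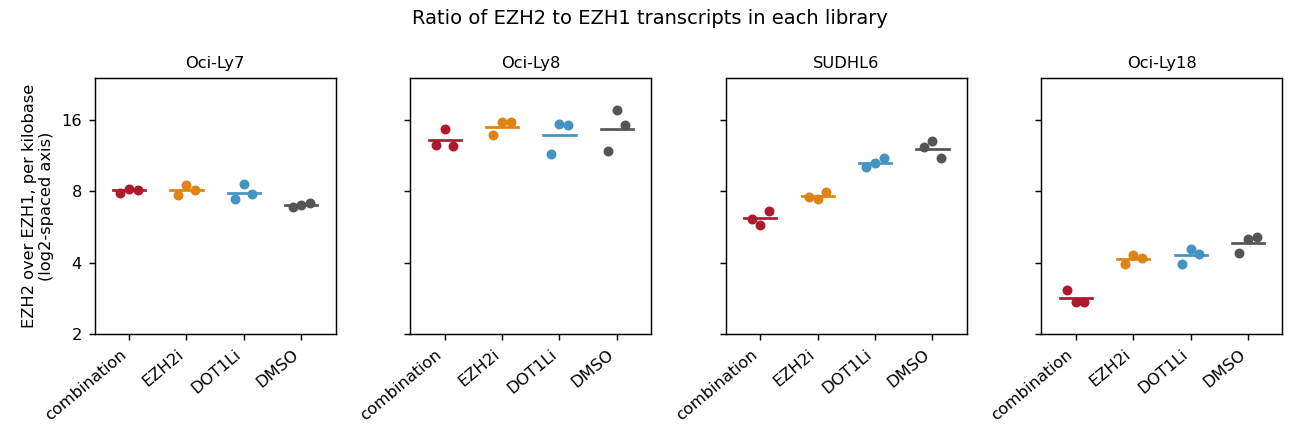
Ratio of EZH2 to EZH1, each in counts per kilobase of exon, in each library (points) with geometric group means, on a log axis, by cell line and treatment. The ratio averaged 2.83 with the combination against 4.85 in DMSO in Oci-Ly18, and 6.18 against 12.2 in SUDHL6, with no overlap of libraries in either line.

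Of the core subunits, EED, the reader of the methyl mark, fell with the combination in 3 lines. In Oci-Ly18 it had 59.1, 56.7 and 54.3 CPM with the combination, 69.96, 73.6 and 73.4 CPM with EZH2i and 62.3, 63.2 and 64.8 CPM with DOT1Li, against 71.02, 72.4 and 72.3 CPM in DMSO. In SUDHL6 it had 62.6, 64.7 and 64.3 CPM with the combination, 68.3, 77.02 and 78.2 CPM with EZH2i and 77.9, 74.6 and 80.2 CPM with DOT1Li, against 76.5, 81.1 and 85.6 CPM in DMSO. The combination libraries lay below all DMSO libraries in both lines, and in Oci-Ly7 and Oci-Ly8 as well. The log2 changes with the combination were -0.34 in SUDHL6, -0.34 in Oci-Ly18 and -0.31 in Oci-Ly8 (adjusted p = 8.3e-05, 0.000143 and 0.000354). Oci-Ly7, at 59.5, 59.5 and 57.8 CPM with the combination against 61.9, 63.00 and 63.01 CPM in DMSO, did not pass. EED was highest in the Oci-Ly8 libraries that stood apart, at 148 CPM in DOT1Li replicate 3 and 155 CPM in DMSO replicate 3. In Oci-Ly8 fitted alone the EED fall with the combination did not pass (-0.29, adjusted p = 0.0575). The combination effects on EED did not differ between lines by the test (adjusted p = 0.0804).

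SUZ12, the scaffold, had 293, 284 and 289 CPM with the combination against 326, 369 and 358 CPM in DMSO in Oci-Ly18, a log2 change of -0.28 ± 0.06 (adjusted p = 0.000165). In SUDHL6 it had 210.2, 192 and 199 CPM against 249.8, 257 and 233 CPM, a log2 change of -0.30 ± 0.06 (adjusted p = 6.6e-05). The groups did not overlap in either line. It also fell in Oci-Ly7 (-0.16 ± 0.06, adjusted p = 0.0404), a call lost without Oci-Ly7 DMSO replicate 2 or 3 or any combination replicate of that line (adjusted p up to 0.114), under library totals alone (0.199) and without a filter (0.254). In Oci-Ly8, at 186, 196 and 197 CPM with the combination against 172, 208 and 180.5 CPM in DMSO, the groups overlapped and the test was not passed. The effects differed between lines (adjusted p = 0.00239). The copy SUZ12P1, with a mean of 424 counts, changed by -0.25 ± 0.04 with the combination averaged over lines, and SUZ12 and its copy may share reads.

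RBBP4 and RBBP7, the histone-binding pair, each fell with the combination in 3 lines. RBBP4 in Oci-Ly18 had 395, 390.3 and 360.5 CPM with the combination, 412, 441 and 438 CPM with EZH2i and 442, 461 and 475 CPM with DOT1Li, against 495, 511 and 520.3 CPM in DMSO. RBBP7 in Oci-Ly18 had 291, 277 and 257 CPM with the combination, 316, 328 and 326 CPM with EZH2i and 338, 359.5 and 347 CPM with DOT1Li, against 368, 407 and 379.6 CPM in DMSO. Every treated group of both genes lay below DMSO in this line, with the combination lowest. With the combination RBBP4 fell in 3 lines, with log2 changes of -0.19 in Oci-Ly7, -0.30 in SUDHL6 and -0.41 in Oci-Ly18, the first lost without a filter (adjusted p = 0.0981). In Oci-Ly8 it had 392, 399 and 388 CPM with the combination, against 389, 415 and 381 CPM in DMSO, and did not pass. RBBP7 fell too, with log2 changes of -0.23 in Oci-Ly8, -0.41 in SUDHL6 and -0.49 in Oci-Ly18. The Oci-Ly8 call was lost under library totals alone (-0.13, adjusted p = 0.094) and with that line fitted alone (-0.22, adjusted p = 0.0694). In Oci-Ly7 it had 429, 415 and 404 CPM against 447, 463 and 458 CPM, below DMSO in every library but not past the test. The combination effects differed between lines for RBBP4 (adjusted p = 8.4e-05) and RBBP7 (0.000825). With EZH2i both fell in Oci-Ly18 (-0.24 and -0.25) and SUDHL6 (-0.17 and -0.30), and RBBP7 also in Oci-Ly8 (-0.23), a call lost with that line fitted alone (-0.22, adjusted p = 0.132) and without a filter (-0.22, adjusted p = 0.0558). The RBBP4 call with EZH2i in SUDHL6 was lost without SUDHL6 DMSO replicate 1 or 2 or EZH2i replicate 3 (adjusted p up to 0.0625), under library totals alone (0.166) and without a filter (0.243). The neighbour TXLNG, which overlaps RBBP7, changed by -0.46 ± 0.04 with the combination averaged over lines, and the strand setting of the counting was not given in the sources used here.

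**Figure D3:**
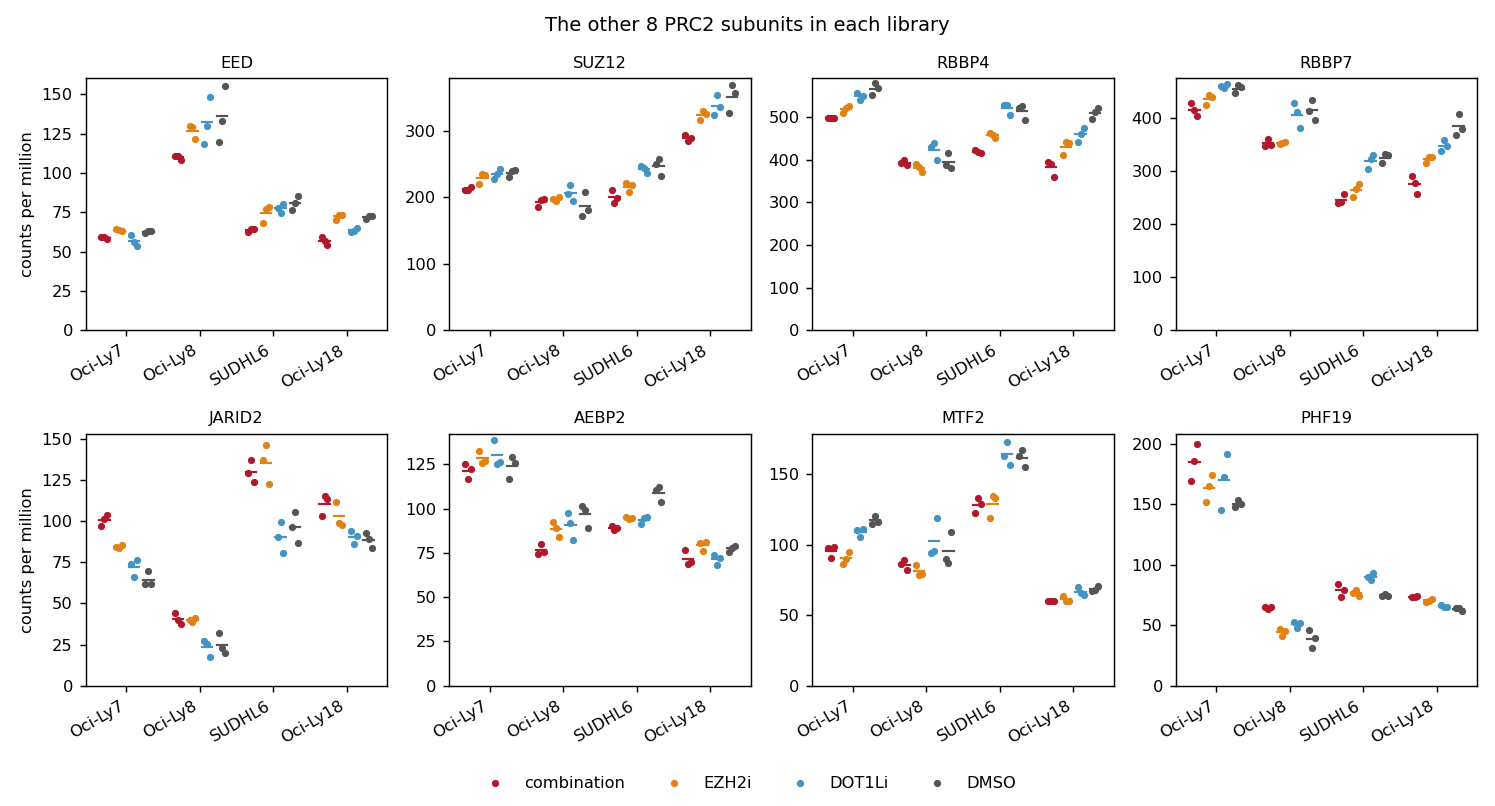
Levels in CPM of the 8 members other than EZH2 and EZH1 in each library (points) with group means (lines), by cell line and treatment. JARID2 was higher in every combination and EZH2i library than in the DMSO libraries of the same line, and EED was lower in every combination library.

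Among the accessory subunits, JARID2, which helps bring PRC2.2 to its targets, rose in all 4 lines with the combination. In Oci-Ly7 it had 97.1, 101 and 104 CPM with the combination, 84.4, 83.8 and 85.5 CPM with EZH2i and 73.8, 66.2 and 76.2 CPM with DOT1Li, against 61.9, 69.6 and 62.00 CPM in DMSO. In Oci-Ly8 it had 44.2, 40.2 and 37.7 CPM with the combination, 40.1, 38.9 and 41.2 CPM with EZH2i and 27.4, 25.4 and 17.6 CPM with DOT1Li, against 32.2, 22.7 and 19.7 CPM in DMSO. In both lines all combination and EZH2i libraries lay above all DMSO libraries, while DOT1Li overlapped DMSO. In SUDHL6 it had 129, 137 and 124 CPM with the combination, 137, 147 and 122 CPM with EZH2i and 90.3, 99.3 and 80.97 CPM with DOT1Li, against 96.4, 106 and 86.6 CPM in DMSO. In Oci-Ly18 it had 103, 115 and 113 CPM with the combination, 112, 98.9 and 97.97 CPM with EZH2i and 94.2, 86.4 and 91.02 CPM with DOT1Li, against 92.6, 88.96 and 83.98 CPM in DMSO. The same separation held in these lines. The log2 changes with the combination were 0.71 in Oci-Ly8, 0.64 in Oci-Ly7, 0.43 in SUDHL6 and 0.32 in Oci-Ly18, the last lost without Oci-Ly18 DMSO replicate 3 (adjusted p = 0.0513). With EZH2i they were 0.68 in Oci-Ly8, 0.49 in SUDHL6 and 0.39 in Oci-Ly7, and Oci-Ly18 did not pass. The combination effects on JARID2 did not differ between lines by the test (adjusted p = 0.0833).

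AEBP2, the zinc-finger partner of JARID2 in PRC2.2, moved the other way where it moved. In Oci-Ly8 it had 74.3, 79.9 and 75.4 CPM with the combination, 92.2, 88.8 and 84.1 CPM with EZH2i and 97.4, 92.1 and 82.3 CPM with DOT1Li, against 102, 99.05 and 89.2 CPM in DMSO. In SUDHL6 it had 90.05, 88.03 and 89.1 CPM with the combination, 95.4, 93.8 and 94.7 CPM with EZH2i and 91.4, 94.7 and 95.2 CPM with DOT1Li, against 110.4, 112 and 104 CPM in DMSO. The combination libraries lay below all DMSO libraries in both lines, with log2 changes of -0.34 ± 0.06 (adjusted p = 2.7e-05) in Oci-Ly8 and -0.29 ± 0.06 (adjusted p = 0.000146) in SUDHL6. In Oci-Ly7 and Oci-Ly18 the groups overlapped and neither passed, and the effects differed between lines (adjusted p = 0.00813, or 0.0905 under library totals alone and 0.165 without a filter). AEBP2 also fell in SUDHL6 with EZH2i (-0.20), a call lost without SUDHL6 DMSO replicate 2 (0.0607), and with DOT1Li (-0.21), a call lost without SUDHL6 DMSO replicate 1 or 2 or any DOT1Li replicate of that line (up to 0.141). Both of these calls were also lost under library totals alone (0.155 with EZH2i and 0.211 with DOT1Li) and without a filter (0.181 and 0.263).

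MTF2 and PHF19, the Polycomb-like proteins of PRC2.1, moved in opposite directions. MTF2 in SUDHL6 had 122, 133 and 129 CPM with the combination, 119, 134 and 133 CPM with EZH2i and 163, 173 and 157 CPM with DOT1Li, against 163, 168 and 155 CPM in DMSO. MTF2 in Oci-Ly7 had 97.9, 90.5 and 98.2 CPM with the combination, 86.5, 90.2 and 94.9 CPM with EZH2i and 110.3, 106 and 111 CPM with DOT1Li, against 115, 121 and 116 CPM in DMSO. In both lines the combination and EZH2i libraries lay below all DMSO libraries. With the combination MTF2 fell in 3 lines, with log2 changes of -0.34 in SUDHL6, -0.30 in Oci-Ly7 and -0.19 in Oci-Ly18, and in Oci-Ly8 the groups overlapped and it did not pass. The Oci-Ly18 call (adjusted p = 0.0402) was lost without any 1 of the 3 DMSO and 3 combination libraries of that line (up to 0.134), with DESeq2 size factors (0.0561), under library totals alone (-0.11, 0.21) and without a filter (0.0955). With EZH2i its log2 changes were -0.38 in Oci-Ly7, -0.33 in SUDHL6 and -0.23 in Oci-Ly8. The Oci-Ly8 call was lost without the 2 libraries that stood apart (-0.12, adjusted p = 0.208), and singly without Oci-Ly8 DMSO replicate 3 or EZH2i replicate 2 or 3 (up to 0.318). It was lost too with the line fitted alone (0.268), under library totals alone (0.0561) and without a filter (0.12).

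PHF19 in Oci-Ly8 had 64.96, 63.8 and 65.4 CPM with the combination, 46.9, 41.2 and 44.96 CPM with EZH2i and 52.5, 47.8 and 51.8 CPM with DOT1Li, against 46.04, 31.1 and 39.6 CPM in DMSO. In Oci-Ly7 it had 169, 186 and 199.9 CPM with the combination, 152, 166 and 174 CPM with EZH2i and 146, 173 and 191 CPM with DOT1Li, against 148, 154 and 151 CPM in DMSO. The combination libraries lay above all DMSO libraries in both lines. It rose by 0.73 ± 0.09 (adjusted p = 2.61e-09) in Oci-Ly8, 0.29 ± 0.08 (adjusted p = 0.00295) in Oci-Ly7 and 0.21 ± 0.08 (adjusted p = 0.0413) in Oci-Ly18, the last lost without any 1 of the 6 Oci-Ly18 combination and DMSO libraries (up to 0.123) and without a filter (0.152). In SUDHL6, at 84.2, 73.8 and 78.8 CPM with the combination against 74.2, 76.2 and 74.6 CPM in DMSO, the groups overlapped and it did not pass. The effects differed between lines (adjusted p = 8.5e-05). With DOT1Li PHF19 rose by 0.38 ± 0.09 (adjusted p = 0.00559) in Oci-Ly8 and by 0.27 ± 0.08 (adjusted p = 0.0422) in SUDHL6. The first of these calls was lost without Oci-Ly8 DMSO replicate 2 (0.0829) and with that line fitted alone (0.145). The second was lost without any 1 of the 6 SUDHL6 DOT1Li and DMSO libraries (up to 0.148) and without a filter (0.0681).

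**Figure D4:**
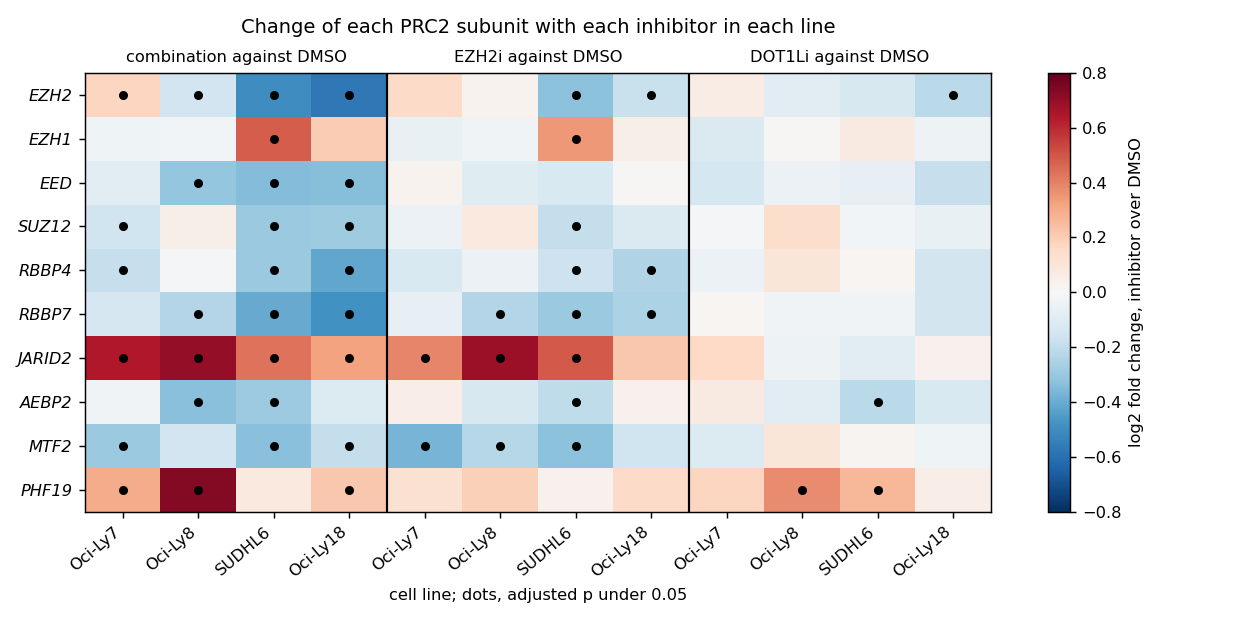
Log2 change against DMSO of the 10 members with the combination, EZH2i and DOT1Li in each line, as colour from blue (lower) to red (higher), with a dot where the adjusted p was under 0.05. With the combination the EZH2 change was lowest in Oci-Ly18 (-0.57) and SUDHL6 (-0.50) and above 0 in Oci-Ly7 (0.17), while JARID2 lay above 0 in all 4 lines.

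Counted within lines against DMSO, the combination changed 6 of 10 members in Oci-Ly7, where 29.8% of all genes changed, and 6 in Oci-Ly8, where 35% did. It changed 9 in SUDHL6, where 39.3% of all genes did, and 8 in Oci-Ly18, where 35% did. EZH2i changed 2 members in Oci-Ly7 (13.7% of all genes), 3 in Oci-Ly8 (17%), 8 in SUDHL6 (22.7%) and 3 in Oci-Ly18 (22%). DOT1Li changed 0 in Oci-Ly7 (2.9% of all genes), 1 in Oci-Ly8 (6.26%), 2 in SUDHL6 (4.86%) and 1 in Oci-Ly18 (6.15%). Beside the count of 0 by edgeR in Oci-Ly7, 1 member had an unadjusted p under 0.05 and DESeq2 called 0. The effect of the combination differed between lines for 7 members, where 43.8% of all genes differed, and EED, JARID2 and MTF2 were the others. The effect of EZH2i differed for 1 member, EZH2, where 24% of all genes differed, and that of DOT1Li for 0, where 5.14% did. For DOT1Li 3 members had an unadjusted p under 0.05 and DESeq2 called 1. For EZH2i, 1 to 5 members were called as single libraries were left out, 5 with DESeq2 and 6 with a replicate block, and EZH1 passed with the block (adjusted p = 0.00409) and without the 2 Oci-Ly8 libraries that stood apart (0.00858). For DOT1Li the block called 3 members, among them EZH2 (0.0419), which also passed without those libraries (0.0258). For DOT1Li in Oci-Ly8, where same-numbered libraries of both groups deviated together, the block called 1 member as well, and 1764 of all genes against 1111.

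Oci-Ly8 was also fitted without its 2 libraries that stood apart, DMSO replicate 3 and DOT1Li replicate 3. The DMSO level of this refit rests on replicates 1 and 2, which also differed from each other. Their chi-square per degree of freedom over genes was 15.11, against at most 7.83 for other replicate pairs without the left-out libraries. EZH1, for instance, had 42.5 CPM in replicate 1 and 27.8 CPM in replicate 2. With the combination the log2 change was then -0.22 for EZH2 (adjusted p = 0.00056), -0.21 for EED (adjusted p = 0.0043), -0.27 for RBBP7 (adjusted p = 3.5e-05) and -0.40 for AEBP2 (adjusted p = 3.62e-07). It was 0.56 for JARID2 (adjusted p = 3.1e-05) and 0.74 for PHF19 (adjusted p = 1.12e-08). These were the members called in that line with all libraries, and each kept its direction. With EZH2i RBBP7 stood at -0.26 and JARID2 at 0.55, and with DOT1Li PHF19 stood at 0.37 (adjusted p = 0.0253), all past the test. Averaged over the 4 lines, all 10 members passed with the combination without these libraries, with EZH2 at -0.28 and EZH1 at 0.13.

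Cell-cycle genes were set beside the members because EZH2 is tied to cell division. The list held 30 genes, among them E2F factors, the MCM replication helicase and cyclins. With the combination 0 rose and 24 fell in SUDHL6, at a median log2 change of -0.44, and 0 rose and 24 fell in Oci-Ly18, at a median of -0.49. In Oci-Ly7 6 rose and 8 fell, at a median of -0.003, and in Oci-Ly8 7 rose and 5 fell, at a median of 0.02. The Oci-Ly8 counts moved with the processing: 11 rose and 1 fell under library totals alone, 4 rose and 1 fell with the line fitted alone, and 7 rose and 3 fell without the 2 libraries that stood apart. Between 2 and 3 fell with DESeq2, with its size factors, without a filter and with at least 10 counts in 24 or more libraries. Over all genes tested the medians were 0.05 in SUDHL6, 0.05 in Oci-Ly18, 0.03 in Oci-Ly7 and 0 in Oci-Ly8. In the same order, 80%, 80%, 46.7% and 40% of the list were called, beside 39.3%, 35%, 29.8% and 35% of all genes. With EZH2i 0 rose and 21 fell in SUDHL6 (70% of the list, beside 22.7% of all genes). In Oci-Ly18 0 rose and 16 fell (53.3%, beside 22%), while 3 rose and 2 fell in Oci-Ly7 (16.7%, beside 13.7%). In Oci-Ly8 2 rose and 2 fell (13.3%, beside 17%), with 1 to 5 higher and 0 to 4 lower over the other settings. With DOT1Li 0 rose and 0 fell in SUDHL6 (median -0.01) and 0 rose and 4 fell in Oci-Ly18 (-0.12). In Oci-Ly7 2 rose and 0 fell (0.06), and in Oci-Ly8 4 rose and 0 fell (0.06). Those were 0%, 13.3%, 6.67% and 13.3% of the list, beside 4.86%, 6.15%, 2.9% and 6.26% of all genes, in that order. With the combination and with EZH2i, the EZH2 change was lowest in SUDHL6 and Oci-Ly18, the lines with the lower list medians. With DOT1Li the EZH2 change was -0.13 in SUDHL6 and -0.08 in Oci-Ly8, neither past the test, where the list medians were near or above 0. Over the other settings 0 to 2 list genes rose and 0 to 2 fell with DOT1Li in SUDHL6, and 3 to 11 fell in Oci-Ly18. Averaged over lines with the combination, E2F2 fell by 0.54 and the helicase subunit MCM6 by 0.46 on the log2 scale. The maintenance DNA methyltransferase DNMT1 fell by 0.41 and cyclin CCNA2 by 0.39. Of the 30, 2 rose and 19 fell, 70% of the list beside 46.4% of all genes. Under library totals alone 4 rose and 18 fell. With the line mean taken out, over 48 libraries that share lines and treatments, the correlation with the mean of the list was 0.86 for RBBP4, 0.84 for SUZ12, 0.83 for EZH2 and 0.83 for RBBP7. It was 0.53 for EED, 0.53 for MTF2, 0.32 for AEBP2 and 0.03 for PHF19, and it was -0.41 for JARID2 and -0.69 for EZH1. The part of cell division in the member results was not tested.

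**Figure D5:**
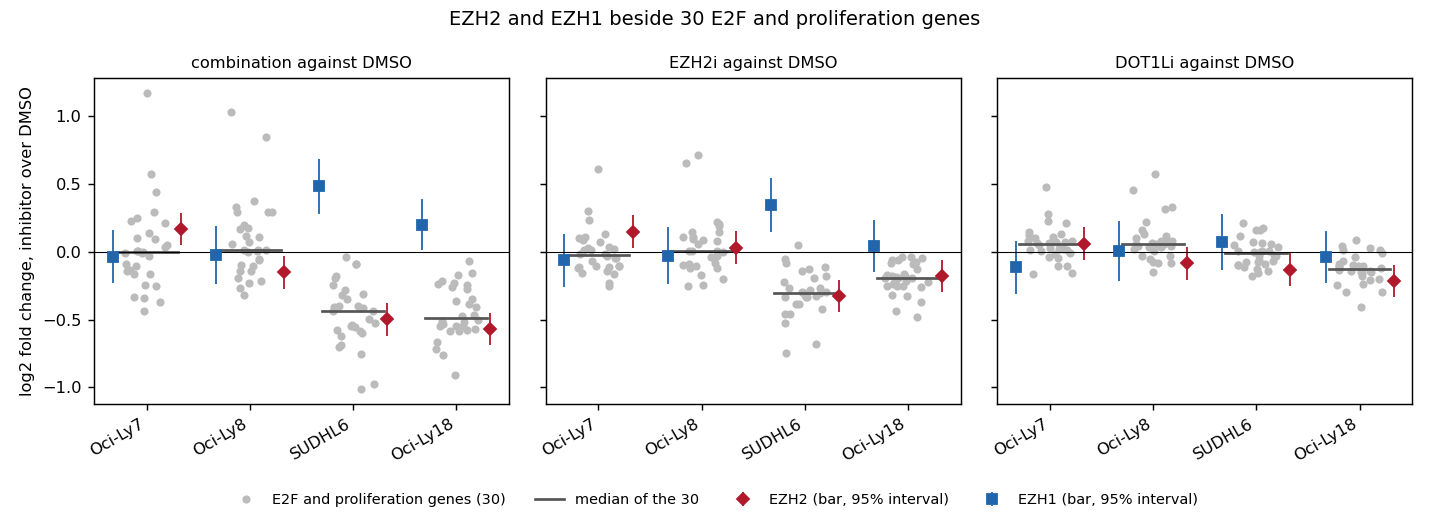
Log2 change against DMSO of the 30 cell-cycle genes (small points, with their median) and of EZH2 and EZH1 (diamonds and squares, with the 95% interval as bars) in each line and treatment. With the combination the list medians were -0.44 in SUDHL6 and -0.49 in Oci-Ly18, near 0 in Oci-Ly7 and Oci-Ly8, with EZH2 at -0.50, -0.57, 0.17 and -0.15 in the same order of lines.

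Other Polycomb genes were described from lists by function, for the combination averaged over lines, where 46.4% of all genes tested were called, 25.7% higher and 20.7% lower. Of the other PRC2-associated genes, EPOP, an Elongin-binding PRC2.1 subunit, rose by 0.48 ± 0.06 and ZNF518A by 0.27 ± 0.06, 2 of 7 tested (28.6%), and PHF1 (0.14 ± 0.07), LCORL (0.08 ± 0.07) and LCOR (-0.04 ± 0.06) did not pass. EPOP had 12.5, 48.4 and 58.6 CPM as lowest, median and highest of 12 combination libraries, against 7.46, 32.2 and 55.6 CPM of 12 DMSO libraries, which overlapped. ZNF518B and SCML2 had lines with 0 counts and their averaged changes are not given, and EZHIP did not pass the filter. Of the demethylases that remove the mark, KDM6A fell by 0.21 on the log2 scale and KDM6B did not pass (0.05 ± 0.07). Of the 24 PRC1 genes, whose complex binds the PRC2 mark or ubiquitylates histone H2A, 14 rose and 6 fell, at a median of 0.17, beside 0.08 over all genes. Under library totals alone 17 rose and 3 fell. BMI1 rose by 0.87 ± 0.06, PCGF2 by 0.80 ± 0.10, BCORL1 by 0.75 ± 0.07 and AUTS2 by 0.44 ± 0.05. PCGF2 ranged from 0.421 to 34.1 CPM over the DMSO libraries, so its averaged change includes levels near 0. BMI1 had 24.3, 39.5 and 72.6 CPM as lowest, median and highest with the combination, against 15.7, 20.3 and 50.4 CPM in DMSO, overlapping across lines. Of the 8 genes of the H2A deubiquitinase complex PR-DUB, MBD5 and MBD6 rose (0.34 and 0.30) and FOXK2 fell (-0.19), 37.5% of the list. Of 22 genes from the other complexes of RBBP4 and RBBP7, 0 rose and 10 fell, 45.5% of the list and close to the share of all genes called, with MBD2 at -0.45, the chromatin assembly factor CHAF1A at -0.35, the deacetylase HDAC1 at -0.29 and GATAD2A at -0.27.

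The genes most like 4 of the members were found by Pearson's r of log2 CPM with the line mean taken out, over the 48 libraries and 9424 protein-coding genes, as a description. The 5 nearest to EZH2 were DAZAP1 (0.89), DTX1 (0.89), EXO1 (0.83), PLK4 (0.83) and HNRNPF (0.83). Those nearest to EZH1 were UBE2H (0.81), TARBP1 (0.79), CBLB (0.78), NR4A1 (0.77) and SH3PXD2A (0.77). For JARID2 they were NEO1 (0.90), ALDH3A2 (0.88), PHF2 (0.88), TLN2 (0.88) and CPD (0.87), and for PHF19 they were ADGRB2 (0.87), YPEL1 (0.84), MFGE8 (0.83), AEBP1 (0.82) and ATP8B2 (0.80). Among the members themselves, RBBP4 and RBBP7 were closest to each other (0.89), followed by SUZ12 and RBBP4 (0.87), and JARID2 and MTF2 were farthest apart (-0.79). EZH2 and EZH1 gave -0.45.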

How the data were processed

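Polyadenylated RNA of 48 libraries was measured, 3 in each of 16 groups of line and treatment, from RLT lysates with a stranded library kit, per the labels' protocols. The authors deposited raw counts per gene for 37706 genes, and the submitters' processing notes name STAR, DESeq2 and GRCh38. The counting program, strand setting and annotation were not given in the sources used here. Every library column was mapped to a sample by its name.

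The members, lists and tests were chosen with earlier results of these data known. Counts were scaled by TMM (edgeR 4.0.16, limma 3.58.1, R 4.3.3), filtered with filterByExpr over the 16 groups and fitted in 1 model of 16 group means by edgeR's robust quasi-likelihood method, with 32 residual degrees of freedom. Contrasts were averaged over lines or taken within a line, and F tests asked whether an effect was equal in the 4 lines. P-values were adjusted by Benjamini and Hochberg over all 17749 genes tested, and a gene was called at an adjusted p under 0.05. CPM are counts scaled to TMM-adjusted library totals. Levels per kilobase used GENCODE 29 exon lengths, taken over all annotated exons of a gene and known for 97.39% of genes tested. All members and all tested genes of the 2 smallest lists are named, with up to 4 called genes of the smallest adjusted p from each other list.

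Alternatives were DESeq2 1.42.0, its size factors in edgeR, library totals alone, no filter on low counts, at least 10 counts in 24 or more libraries, a replicate block, each line fitted alone, the 2 Oci-Ly8 libraries that stood apart left out, another prior count for the EZH2 to EZH1 ratio (0.5 in place of 2), and each of the 48 libraries left out in turn with the genes and dispersion trend of the full fit. The tests were checked on simulated counts with independent libraries, none of which stood apart. Of true log2 changes of 0.25, 31 of 34 were called averaged over lines, 13 of 67 in SUDHL6 and 1 of 33 as a difference between lines. Of changes of 0.5 these were 33 of 33, 60 of 67 and 22 of 34. False calls numbered 4, 5 and 2 among 17434 genes. Small changes within a line, and small differences between lines, were thus mostly missed in the simulation. Far fewer genes were changed there than were called in the data, which makes the adjusted cut-off stricter. These shares therefore do not give the power of the tests on the real counts. The number of libraries and the totals limit the precision. The main fit did not pair same-numbered libraries of a line. Their correlations over genes were all positive, with medians per line from 0.0485 to 0.0895. Among the comparisons with DMSO, all 3 correlations were over 0.1 only for DOT1Li and DMSO in Oci-Ly8.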

Additional observations from a re-analysis of the deposited data

Results flagged for a closer look

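The effect of a treatment differed between the 4 lines, by edgeR's test of the difference itself, for 8 results on the members. For the combination against DMSO the adjusted p was 5.61e-10 for EZH2, whose log2 changes were 0.17 in Oci-Ly7, -0.15 in Oci-Ly8, -0.50 in SUDHL6 and -0.57 in Oci-Ly18. It was 0.00579 for EZH1, with changes of 0.48 in SUDHL6 and between -0.04 and 0.20 in the other lines. It was 8.4e-05 for RBBP4 and 0.000825 for RBBP7, which changed most in Oci-Ly18 (-0.41 and -0.49). It was 0.00239 for SUZ12, with changes of -0.30 in SUDHL6 and -0.28 in Oci-Ly18. It was 0.00813 for AEBP2, with -0.34 in Oci-Ly8, and 8.5e-05 for PHF19, with 0.73 in Oci-Ly8. For EZH2i against DMSO it was 7.33e-05 for EZH2, with changes of 0.15 in Oci-Ly7, 0.03 in Oci-Ly8, -0.33 in SUDHL6 and -0.18 in Oci-Ly18. Over all genes tested the same test was passed by 43.8% for the combination and 24% for EZH2i.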

How the results depend on the processing

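Of 155 called results on the members, 119 kept their call, and their direction where they had one, under every setting, other than left-out libraries, that gave them a value. Of those 8 settings, the fits of each line alone gave a value for 49 results and the replicate block for 93, and the change of prior count applied to the EZH2 to EZH1 ratio only. With single libraries left out, 131 kept their call each time, and 117 did under all of these. Averages over lines and tests of equal treatment effects were retested without each of the 48 libraries. Effects within a line were retested only without a library of that line, and differences in DMSO only without a DMSO library concerned. Tests of equality between lines have no direction, and 0 of the other results were reversed. With the combination averaged over lines 10 of 10 members were called under every alternative that gave an average. Where a call or value moved, the cause was not tested.

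Values below are log2 changes of EZH2 and EZH1 or numbers of members called, and those that changed sign belong to EZH1 or EZH2 results that were not called. With DESeq2, EZH1 with the combination in Oci-Ly8 was 0.012, 2 members were called for DOT1Li in Oci-Ly18 and 2 in Oci-Ly8, and effects differed between lines for 1 member for DOT1Li and 5 for EZH2i. With DESeq2 size factors in edgeR, EZH1 with the combination in Oci-Ly8 was 0.012, the averaged EZH2 change was -0.083 with DOT1Li and -0.075 with EZH2i, neither called, and EZH2i effects differed between lines for 2 members. With at least 10 counts in 24 or more libraries, the same values were 0.02, -0.082, -0.072 and 2. Without a filter, EZH1 with DOT1Li in Oci-Ly8 was -0.002, and the averaged EZH2 change was -0.095 with DOT1Li and -0.075 with EZH2i, neither called. That setting called 0 members for DOT1Li in Oci-Ly18, 0 in SUDHL6 and 1 averaged over lines, 1 for EZH2i in Oci-Ly8 and 5 in SUDHL6, and 3 for the combination in Oci-Ly7, and EZH2i effects differed between lines for 2. With library totals alone, EZH1 was 0.016 with DOT1Li averaged over lines and 0.01 with EZH2i in Oci-Ly8. With the combination it was 0.079 in Oci-Ly8 and 0.018 in Oci-Ly7. The averaged EZH2 change was then -0.058 with DOT1Li and -0.039 with EZH2i, neither called. Library totals called 0 members for DOT1Li in Oci-Ly18, 1 in SUDHL6 and 1 averaged over lines, 5 for EZH2i in SUDHL6, and 3 for the combination relative to EZH2i. With each line alone, DOT1Li had 4 in Oci-Ly18 and 0 in Oci-Ly8, EZH2i had 6 in Oci-Ly18, 4 in Oci-Ly7 and 1 in Oci-Ly8, and the combination had 3 in Oci-Ly8. Without both Oci-Ly8 libraries that stood apart, EZH2 with EZH2i in Oci-Ly8 was -0.031, DOT1Li had 4 members in Oci-Ly18, EZH2i had 5 in Oci-Ly18 and 4 in Oci-Ly7, and effects differed between lines for 2 members for DOT1Li and 5 for EZH2i.

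Same-numbered libraries of a line deviated together weakly, which the main fit left out and the replicate block took in. Their correlations over genes were all positive, from 0.019 in Oci-Ly18 to 0.415 in Oci-Ly8, with medians per line from 0.0485 to 0.0895. Of 18 correlations per line, 1, 4, 4 and 8 were over 0.1 in Oci-Ly18, Oci-Ly7, Oci-Ly8 and SUDHL6. All 3 were over 0.1 between DOT1Li and DMSO in Oci-Ly8 (0.238 to 0.415), between the combination and DOT1Li in Oci-Ly7 (0.132 to 0.232) and between the combination and EZH2i in SUDHL6 (0.118 to 0.182). With the replicate block, 3 members were called for DOT1Li in Oci-Ly18 and 4 for EZH2i in Oci-Ly7, and effects differed between lines for 3 members for DOT1Li and 6 for EZH2i.

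With single libraries left out, the averaged change with EZH2i was -0.096 to -0.07 for EZH2 and 0.048 to 0.134 for EZH1, and with DOT1Li -0.107 to -0.073 for EZH2 and -0.065 to 0.04 for EZH1. In Oci-Ly8 EZH1 was -0.136 to 0.208 with the combination, -0.139 to 0.205 with EZH2i and -0.179 to 0.242 with DOT1Li, EZH2 with EZH2i was -0.032 to 0.071, and EZH1 with DOT1Li in Oci-Ly18 was -0.08 to 0.005. The averaged log2 ratio of EZH2 to EZH1 with EZH2i less that in DMSO was -0.202 to -0.129. For DOT1Li, 1 to 4 members were called averaged over lines, 0 to 1 in Oci-Ly7, 0 to 1 in Oci-Ly18, 0 to 2 in SUDHL6 and 0 to 1 for the line difference. For EZH2i, 2 to 5 were called in Oci-Ly8, 5 to 8 in SUDHL6 and 1 to 5 for the line difference, and for the combination 5 to 8 in Oci-Ly18. The averaged EZH2 call with EZH2i was lost without Oci-Ly7 DMSO or EZH2i replicate 2 or 3, Oci-Ly8 DMSO replicate 1 or 2 or EZH2i replicate 3, SUDHL6 DMSO replicate 1 or 2, or Oci-Ly18 DMSO replicate 2 or 3 or EZH2i replicate 3. With DOT1Li it was lost without Oci-Ly7 DMSO replicate 2 or 3 or DOT1Li replicate 1 or 2, Oci-Ly8 DMSO replicate 1 or 2 or DOT1Li replicate 3, SUDHL6 DMSO replicate 1 or 2 or DOT1Li replicate 1 or 3, or Oci-Ly18 DMSO replicate 2 or 3 or DOT1Li replicate 1. The averaged EED call with DOT1Li was lost without Oci-Ly7 DMSO or DOT1Li replicate 2 or 3, Oci-Ly8 DMSO replicate 3 or DOT1Li replicate 1 or 2, SUDHL6 DMSO replicate 3 or DOT1Li replicate 2, or Oci-Ly18 DMSO replicate 2 or 3 or DOT1Li replicate 1 or 2. SUZ12 with EZH2i in SUDHL6 lost its call without SUDHL6 DMSO replicate 1 or 2 or EZH2i replicate 2 (adjusted p up to 0.0901). In DMSO, leaving out 1 library also ended the calls of RBBP7 in Oci-Ly7 against Oci-Ly8 (0.127), RBBP4 in Oci-Ly7 against SUDHL6 (0.0849), AEBP2 in Oci-Ly8 against SUDHL6 (0.114) and EED in SUDHL6 against Oci-Ly18 (0.137).

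Over all genes, 9 departed from additivity averaged over lines, against 64 with DESeq2, 59 without a filter, 97 with the block and 50 without the libraries that stood apart. The DOT1Li effect differed between lines for 913 genes, against 1388 with DESeq2, 1802 with the block and 1401 without those libraries. DOT1Li called 514 genes in Oci-Ly7 (1056 with the block, 928 without those libraries), 1111 in Oci-Ly8 (1764 with the block, 296 alone), 863 in SUDHL6 (1732 with the block, 2054 alone, 1680 without those libraries) and 1092 in Oci-Ly18 (2007 alone). The combination called 6210 in Oci-Ly8 (3447 alone) and EZH2i 3014 (1009 alone). Library totals moved the median log2 change of all genes by 0.087 for the averaged combination and by 0.12 for the combination in SUDHL6.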
